A study of Mus musculus with 6 samples.

Results

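The noncoding RNA transcripts of the array were taken as its non-control probes designed on a RefSeq noncoding record (accession prefix NR_) whose gene symbol has no probe on a messenger RNA record (NM_). Of 2477 NR_ probes, 70 had no symbol in the reference table and 47 shared a symbol with an NM_ probe, which left 2360 probes of 2167 genes, out of 22911 genes with a symbol on the array. The rule itself uses probe annotation and no signal. The probes were read on arrays of liver RNA from male mice, 12 weeks old, fed granulated regular chow (control, 100% regular food) or soy-enriched chow (soy, 75% regular food and 25% soy bean) for 4 weeks, with 3 mice and 3 arrays per diet. The strain is not given in the sources used here. The whole tissue piece was extracted, so fewer cells of a type and less RNA per cell cannot be told apart. By RefSeq biotype 2038 of the probes belong to long noncoding RNAs (lncRNAs) and 276 to transcribed pseudogenes, and 4 probes lie on genes that RefSeq lists as protein-coding. All 8 hepatocyte markers, among them albumin, were well above background on the 6 arrays, and Xist, the RNA that coats the inactive X chromosome of female cells, was well above background on none.

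Long noncoding RNAs are transcribed and usually spliced like messenger RNAs but carry no long reading frame. Some act on the chromosome they come from: Kcnq1ot1 and Airn are transcribed from the paternal copy of an imprinted cluster and silence neighbouring genes there. Others build nuclear bodies (Neat1 in paraspeckles) or are precursors, from which the cell cuts microRNAs or small nucleolar RNAs (snoRNAs), the guides for chemical modification of ribosomal RNA. Transcribed pseudogenes are copies of coding genes that still make RNA, often so similar to the parent gene that a probe may read both.

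The calls below turn on 4 genes, and the promoters of 3 of them are in the RefSeq table used here (assembly GRCm38.p6). Each sequence covers 250 bases before and 50 bases after the annotated start, 5′ to 3′, and capitals mark every match on either strand to the E-box CACGTG, the nuclear receptor motif AGGTCA, the CCAAT box CCAAT or the GC box GGGCGG.
Kcnq1ot1 (chr7:143296498-143296797, minus strand): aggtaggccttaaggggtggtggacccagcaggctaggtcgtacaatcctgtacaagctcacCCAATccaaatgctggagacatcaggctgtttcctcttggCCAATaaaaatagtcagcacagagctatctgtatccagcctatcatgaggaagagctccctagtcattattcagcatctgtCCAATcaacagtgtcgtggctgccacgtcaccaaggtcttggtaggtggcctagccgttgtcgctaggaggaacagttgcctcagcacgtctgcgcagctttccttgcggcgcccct
1810034E14Rik (chr13:64248450-64248749, plus strand): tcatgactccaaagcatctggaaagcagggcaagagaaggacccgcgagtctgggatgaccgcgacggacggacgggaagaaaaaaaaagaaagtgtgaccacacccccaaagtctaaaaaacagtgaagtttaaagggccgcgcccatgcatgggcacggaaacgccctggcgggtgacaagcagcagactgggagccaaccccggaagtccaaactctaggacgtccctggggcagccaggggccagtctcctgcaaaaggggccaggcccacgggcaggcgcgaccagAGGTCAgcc
2310040G24Rik (chr6:86488178-86488477, minus strand): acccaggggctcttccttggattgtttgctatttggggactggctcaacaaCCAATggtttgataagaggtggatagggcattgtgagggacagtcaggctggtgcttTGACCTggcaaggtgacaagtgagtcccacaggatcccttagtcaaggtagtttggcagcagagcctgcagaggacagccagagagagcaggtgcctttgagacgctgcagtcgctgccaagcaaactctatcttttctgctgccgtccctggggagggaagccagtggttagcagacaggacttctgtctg
Kcnq1ot1 holds CCAAT 3 times, 2310040G24Rik holds CCAAT once and AGGTCA once, and 1810034E14Rik holds AGGTCA once, past the start. No matches overlap one another. Of all 32851 promoters in the table, 37.4% hold CCAAT, 16.3% AGGTCA, 35.7% GGGCGG and 7.15% CACGTG. Such a match is a description of the letters, not a site of binding.

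Of the 2360 noncoding probes, control arrays 1 to 3 marked 956, 935 and 1018 as well above background, and soy arrays 1 to 3 marked 735, 765 and 777. Every control array was above every soy array (two-sided exact permutation test, p = 0.1, the smallest that 3 against 3 allows). On all 6 arrays 661 probes were marked (28.0%), and on none 1183 (50.1%). NM_ probes were marked on all 6 arrays in 60.9% and on none in 23.2%. The lower count on the soy arrays was not particular to noncoding RNA, since the share of NM_ probes marked was 71.3%, 70.5% and 73.0% in control livers and 63.0%, 64.0% and 65.0% in soy livers. The signal at which a spot first counted as well above background, after normalization, was 6.28, 6.32 and 6.22 (log2) for control and 6.42, 6.78 and 6.61 for soy, and its part in these counts was not tested.

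**Figure D1:**
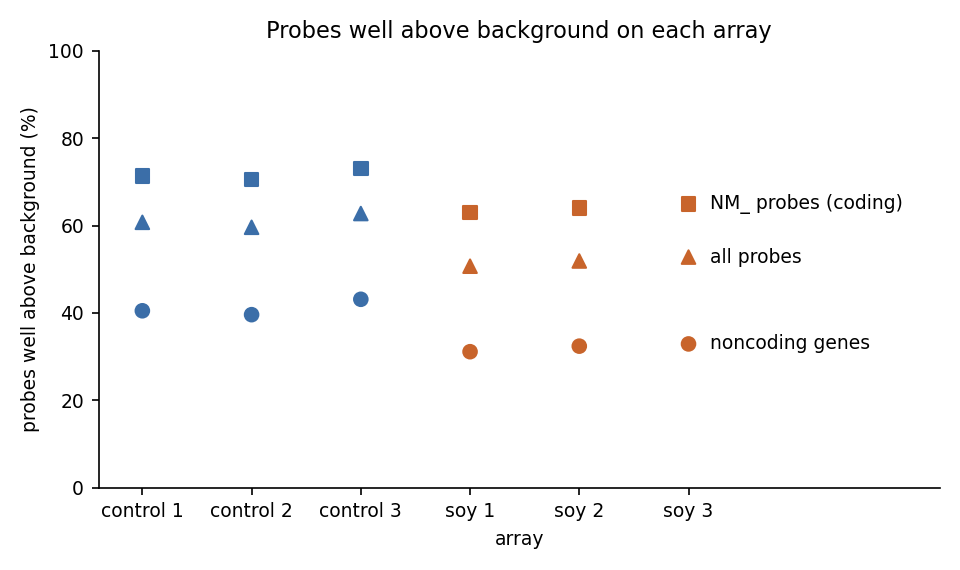
Share of probes marked well above background (vertical axis, percent) on each of the 6 arrays for noncoding probes (circles), NM_ probes (squares) and all probes (triangles), with control arrays in blue and soy arrays in orange. Noncoding probes lie lowest on every array, between 31.1% and 43.1%, and each kind of probe is lower on the soy arrays.

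All 3 control arrays but no soy array marked 86 noncoding probes, and the reverse was found for 0. Over all 56605 probes it was 2535 and 5. The measured difference over these 86 had a median of -0.19 (log2) and ran from -0.75 to 0.25, and the choice by detection in control favours a negative median. The soy group then gives a bound in place of a fold, and the highest bound was at least 1.63-fold, for 1700066B17Rik, whose control signals were 6.94, 8.83 and 6.69 and whose soy signals were 6.94, 6.66 and 6.61. That bound rests on control 2, since control 1 and soy 1 had the same signal.

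Named classes of noncoding gene differed in how many of their probes were detected. All 13 probes of snoRNA and scaRNA genes, 17 of 18 probes of snoRNA host genes and 15 of 16 probes of other small structural RNA genes were well above background on all arrays. Among antisense or opposite-strand genes it was 45 of 163, among predicted genes (Gm symbols) 151 of 550, among RIKEN clones 286 of 1263 and among pseudogenes named as such 39 of 95. By biotype, 499 of 2038 lncRNA probes (24.5%) and 133 of 276 transcribed pseudogene probes (48.2%) were detected throughout. The 661 detected probes had a median signal of 8.73 (log2) and spanned 7.08 to 17.95. Signals depend on the probe as well as on the RNA, so levels of different genes are not set against each other here.

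Across the class, the median difference, soy minus control, was -0.0029 (log2) over the 2360 noncoding probes and -0.01 over all 56605 probes, and the middle part of the noncoding probes, from the 25th to the 75th percentile, lay between -0.11 and 0.12. Differences above 1 in size were seen for 23 noncoding probes. Groups did not overlap for 355 noncoding probes, of which 133 were higher in soy (5.64% of the class, against 7.75% of all probes) and 222 lower (9.41%, against 10.3%). A probe was called at a Benjamini-Hochberg adjusted p under 0.05, over all probes, with a fold change above 1.5 or under 0.66. By this rule 4 noncoding probes were called (0.169%), against 0.350% of all probes, and all 4 were higher in soy (0.208% of all probes were called higher and 0.141% lower). At an unadjusted p under 0.05 there were 209 noncoding probes (8.86%), against 11.47% of all probes. With another scaling the split of the calls shifted. A 75th percentile shift gave 5 genes higher and 1 lower, with 299 of all probes called (0.528%). Cyclic loess gave 4 higher and 1 lower, with 187 of all probes called (0.330%). Agilent's processed signal, which differs in both background correction and scaling, gave 797 higher and 43 lower, while 13138 of all probes (23.2%) were called. With testing limited to probes detected on every array of either diet, 7 noncoding genes were higher and 8 lower, of 860 probes. Over all probes that filter gave 497 calls of 32376 (1.54%), and it admits more probes through control than through soy.

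The 4 genes called higher in soy were Mirt2, Kcnq1ot1, 1810034E14Rik and 2310040G24Rik. Mirt2, an lncRNA first described in the infarcted mouse heart, had the largest difference of the 4. Its probe gave 8.08, 8.13 and 8.83 (log2) in control livers and 10.07, 9.83 and 10.24 in soy livers. All soy livers were above all control livers by more than the spread within either group, and control 3 was the highest of its group. Mirt2 was 3.25-fold higher in soy, a difference of 1.70 ± 0.21 (SE) with an adjusted p of 0.031. Its near relative by name, Mirt1, gave 7.52, 7.71 and 7.48 in control and 7.31, 7.63 and 7.55 in soy, with overlapping groups. RefSeq places Mirt2 over Spatc1, a coding gene whose probe was well above background on 0 arrays.

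Kcnq1ot1, the imprinted transcript that runs through the Kcnq1 gene, has 5 probes on the array, and 1 of them was called. The called probe gave 9.51, 9.85 and 9.60 in control livers and 10.52, 10.52 and 10.83 in soy livers, 1.96-fold higher (0.97 ± 0.14, adjusted p = 0.043). The brightest probe gave 13.80, 13.79 and 13.93 against 14.21, 14.38 and 14.26, a difference of 0.44 ± 0.10 with an adjusted p of 0.144. Both probes separated the groups on all arrays. Another differed by 0.28 (adjusted p = 0.365), again without overlap, while of the dimmer pair 1 differed by -0.02 with overlapping groups and 1 was well above background on no array. The size of the Kcnq1ot1 difference thus varied between its probes, and the mean over its probes, 0.32 higher in soy, was not called. Kcnq1 itself, which encodes a potassium channel subunit, gave 7.95, 7.92 and 7.78 in control and 8.19, 8.06 and 7.85 in soy, with overlapping groups and a difference of 0.15 ± 0.12.

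1810034E14Rik had the tightest groups of the 4. Its values were 7.51, 7.51 and 7.48 in control livers and 8.34, 8.39 and 8.28 in soy livers, 1.79-fold higher (0.84 ± 0.09, adjusted p = 0.019). The gene overlaps Cdc14b, which encodes a cell-cycle phosphatase, on the opposite strand. The Cdc14b probe gave 11.77, 11.96 and 11.69 in control and 12.41, 12.39 and 12.50 in soy. It too separated the groups, by 0.63 ± 0.11, with an adjusted p of 0.072, and was not called. 2310040G24Rik gave 10.05, 9.96 and 9.88 in control livers and 10.64, 10.77 and 10.77 in soy livers, 1.70-fold higher (0.77 ± 0.10, adjusted p = 0.033). The nearest coding gene on the array, C87436, lies on the opposite strand and differed by -0.21 ± 0.11, uncalled.

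**Figure D2:**
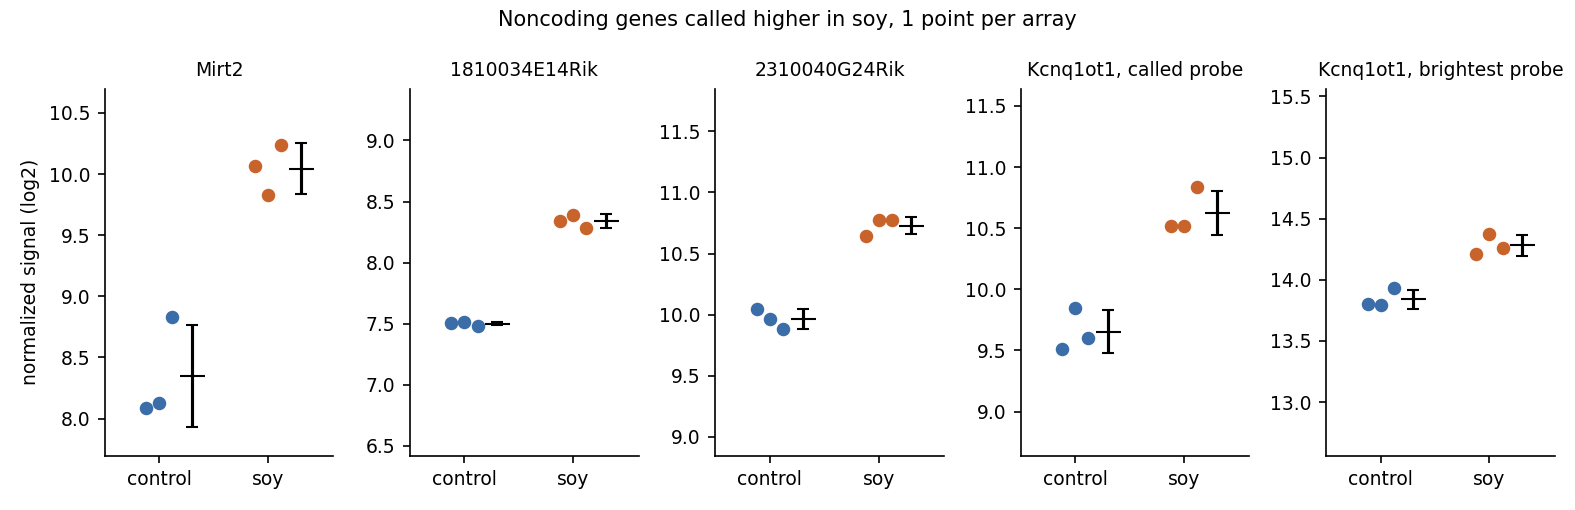
Normalized signal (log2, vertical axis, each panel spanning 3 units) of the genes called higher in soy, with 1 point per array, control in blue and soy in orange, and the mean ± SD beside each group. In every panel the 3 soy points lie above the 3 control points, and the called probe of Kcnq1ot1 separates the groups by 0.97 while its brightest probe separates them by 0.44.

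The arrays lay on 3 slides, and 2 slides held both diets. Within slide 1 (soy 1 against control 1 and 2) the differences were 1.96 for Mirt2, 0.84 for the called Kcnq1ot1 probe, 0.83 for 1810034E14Rik and 0.64 for 2310040G24Rik. Within slide 3 (soy 3 against control 3) they were 1.41, 1.23, 0.80 and 0.89. Groups without overlap fix the direction within a slide. With slide as a factor in the model none of the 4 calls remained, and 25 probes of the whole array were called, as many as without soy 2. Slide 2 held soy 2 alone, so that model draws no diet difference from soy 2. A slide effect and the loss of that array cannot be told apart there. The 4 calls also rest on the full set of arrays: without control 1, control 2, soy 2 or soy 3 there were 0 called noncoding genes, without soy 1 there was 1, which was none of the 4, and without control 3 there were 4, of which Mirt2 and 1810034E14Rik were shared.

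Below the threshold stood further genes whose groups did not overlap. Some were called when testing was limited to probes detected throughout a diet, among them Gm5065 and Gm38426, higher, and Gm16548, Gm12718 and Meg3, lower. Gm12718 passed that filter through control alone, the diet in which it was higher, so its call there is no support for a difference. Among those higher in soy, Gm5065, a transcribed pseudogene, gave 7.43, 8.17 and 7.82 in control and 9.01, 8.66 and 9.08 in soy (1.11 ± 0.20, adjusted p = 0.082). Gm38426, which overlaps the kinase gene Mast1 on the opposite strand, gave 9.94, 9.54 and 10.56 in control and 11.10, 11.57 and 11.80 in soy (1.47 ± 0.28, adjusted p = 0.091). The Mast1 probe differed by 0.14 ± 0.15 with overlapping groups. A further 7 genes of this kind differed by between 0.43 and 1.11 with adjusted p from 0.101 to 0.164. They were 1700052K11Rik, 2210039B01Rik, 4930525G20Rik, D930048N14Rik, 2810013P06Rik, 1110020A21Rik and Scarna13, the last a guide RNA of the Cajal body, and another probe of 4930525G20Rik differed by -0.04 with overlap.

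Among those lower in soy, Gm16548 came nearest to the threshold. It gave 12.19, 12.51 and 12.47 in control livers and 11.60, 11.53 and 11.68 in soy livers (-0.79 ± 0.12, adjusted p = 0.053). RefSeq places it over F5, the gene of coagulation factor V, and Selp, the gene of P-selectin, whose probes differed by -0.00 and -0.22. Gm12718 had the largest difference, with 10.03, 9.71 and 9.46 in control and 8.51, 6.84 and 7.04 in soy (-2.27 ± 0.41, adjusted p = 0.082), and 2 of its 3 soy signals were well above background. The spread within soy was wide, with soy 1 far above the other two. Meg3, the maternally expressed lncRNA of the imprinted Dlk1 region, gave 8.34, 8.41 and 8.46 in control and 7.88, 7.55 and 7.25 in soy (-0.84 ± 0.16, adjusted p = 0.091). Its 3 dimmer probes were not well above background on all arrays. The other 7 genes were 4833415N18Rik, Gm6994, 1700001L05Rik, 1700012D01Rik, Gm15545, 2610005L07Rik and AA536875, with differences between -1.04 and -0.51 and adjusted p from 0.061 to 0.099, and another probe of Gm6994 differed by 0.13 with overlap.

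**Figure D3:**
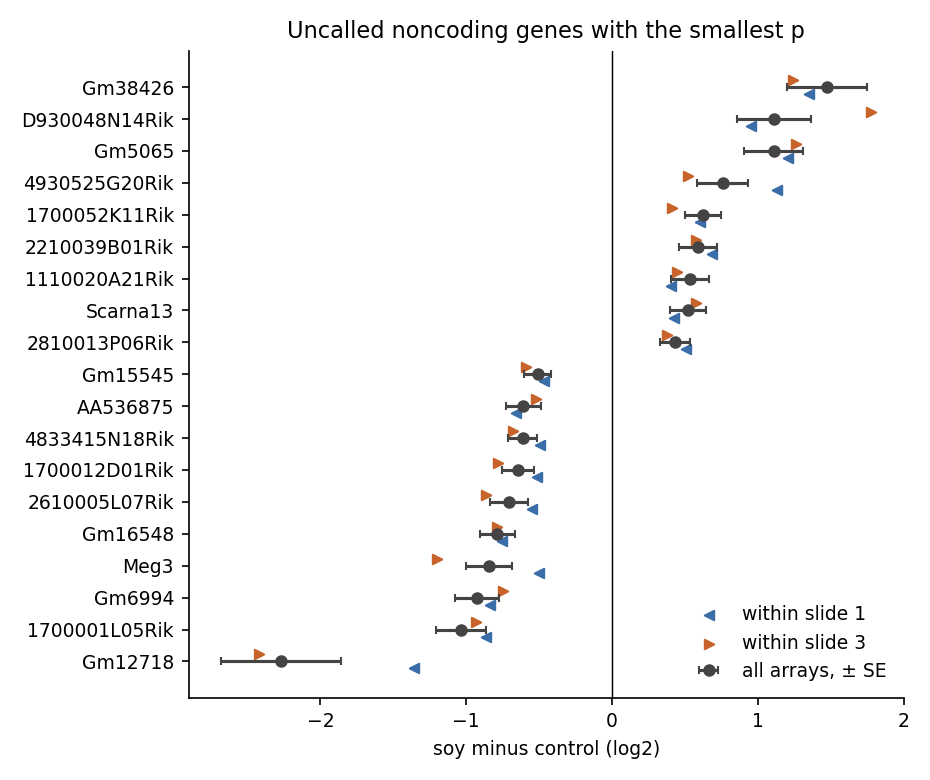
Difference between soy and control (log2, horizontal axis) for the uncalled noncoding genes with the smallest p, 9 higher and 10 lower in soy, with the estimate over all arrays ± SE (grey) and the differences within slide 1 (blue) and slide 3 (orange). All 3 estimates of a gene lie on the same side of 0, as the choice of genes without overlap fixes, and those of Gm12718 are the farthest apart, at -1.36 within slide 1 and -2.42 within slide 3.

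Differences of noncoding genes were set beside those of the coding genes they overlap. Over 213 overlapping pairs in which both probes were well above background on all arrays, the differences had Pearson's r = 0.10 across pairs and the same sign in 122 (57.3%), and over 111 pairs on opposite strands r was 0.16. The pairs share the same 6 arrays and are not independent, and 0 of the 213 coding partners were called. In 33 pairs of an antisense gene and the coding gene it is named after, with both probes detected throughout, the signs matched in 15 and r was -0.05. Hnf4aos, the antisense RNA of Hnf4a, the master transcription factor of hepatocytes, gave 10.92, 10.22 and 11.16 in control livers and 11.57, 11.62 and 11.34 in soy livers (0.75 ± 0.23, adjusted p = 0.275). Control 2 lay lowest, and the difference was 1.01 within slide 1 and 0.18 within slide 3, so its size depends on single arrays. Hnf4a gave 16.73, 16.41 and 16.52 in control and 16.43, 16.31 and 16.18 in soy (-0.25 ± 0.12). The groups did not overlap for Hnf4aos and overlapped for Hnf4a, and neither was called. Bach2os (0.39) with Bach2 (-0.47), and Appbp2os (0.53) with Appbp2 (-0.39), chosen after their values were seen, separated the groups in opposite directions, and Rsf1os1 (-0.38) with Rsf1 (-0.13) in the same direction, all uncalled.

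Some called coding genes were the nearest coding gene on the array to a detected noncoding gene. Rad51b, a DNA repair gene, was called higher in soy by 3.87 ± 0.32 (adjusted p = 0.010), with 5 of its 6 signals well above background, while its neighbour 9430078K24Rik differed by 0.09. Mtnr1a, which encodes a melatonin receptor, was called higher by 1.33 ± 0.16 (adjusted p = 0.025), while Gm6329 beside it differed by -0.06. The groups of both noncoding genes overlapped. Tle1, which encodes a transcriptional corepressor, was called by a probe other than its brightest, which gave -0.69 (adjusted p = 0.212), and its neighbour C630043F03Rik differed by -0.39 (adjusted p = 0.432) with overlap.

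Imprinted noncoding genes were described from a list of 13 measured genes, of which 7 were detected on all arrays. Apart from Kcnq1ot1, called by 1 probe, no member was called, and the median difference over the list was -0.04. Airn, which silences the Igf2r cluster, gave 11.10, 10.75 and 10.74 in control and 11.06, 11.08 and 10.81 in soy, with overlapping groups. Peg13 differed by -0.07 and Nctc1 by -0.16, again with overlap. For 4 genes the groups did not overlap on the lower side, of 13, while 10.3% of all probes were lower without overlap. Beside Meg3 these were its cluster neighbours Rian and Mirg, with differences of -0.37 and -0.26 and bounds of at least 1.07-fold and 1.20-fold, and H19, the maternally expressed RNA next to Igf2, with -0.67. None of the 4 was called, and Rian, Mirg and H19 were well above background on no soy array. H19 gave 8.27, 6.68 and 6.83 in control and 6.62, 6.57 and 6.59 in soy, so control 1 stood apart, 2 control signals were well above background, and the bound was at least 1.504-fold. The list also holds Gm20753 (0.07) and Oip5os1 (-0.04), which are not known as imprinted genes.

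MicroRNA precursors were represented by 22 noncoding genes that hold a RefSeq microRNA hairpin on the same strand, of which 12 were well above background on all arrays. The probes read the host transcript and not the microRNA. Of the 12 hosts, 2 were higher and 10 lower in soy, with a median difference of -0.11. Carmn and Mir99ahg, described below, were not among the 22, so the count of detected hosts is not complete. By limma 0 were called, against 0.350% of all probes, the smallest adjusted p being 0.091, for Meg3. Mature sequences cut from the better known of these hosts are shown with the seed, bases 2 to 8, in capitals (RefSeq, GRCm38.p6), since the seed sets which messages a microRNA pairs with.
miR-22-3p: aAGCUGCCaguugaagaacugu
miR-770-5p: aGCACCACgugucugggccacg
miR-100-5p: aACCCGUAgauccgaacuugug
miR-125b-5p: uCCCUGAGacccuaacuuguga
miR-16-5p: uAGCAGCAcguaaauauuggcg
miR-101a-3p: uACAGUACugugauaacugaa
miR-223-3p: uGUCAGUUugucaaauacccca
miR-182-5p: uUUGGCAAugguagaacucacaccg
miR-96-5p: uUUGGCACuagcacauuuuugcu
miR-183-5p: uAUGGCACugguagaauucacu
These 10 seeds all differ, although miR-182-5p and miR-96-5p, from 1 cluster, share their first 6 seed bases.

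Mir22hg, the host of miR-22, gave 11.33, 11.28 and 10.96 in control livers and 11.92, 11.70 and 11.498 in soy livers (0.52 ± 0.15, adjusted p = 0.238). The groups did not overlap, and the gene was not called. Mir100hg, which carries miR-100, let-7a-2 and miR-125b-1, gave 7.62, 7.59 and 7.62 in control and 7.41, 7.44 and 7.41 in soy (-0.20 ± 0.09, adjusted p = 0.449), without overlap. Dleu2, the host of miR-16-1, gave 10.60, 9.87 and 10.37 against 10.13, 10.29 and 10.13, with overlap. E130102H24Rik, the host of miR-101a, separated the groups by -0.26 ± 0.10 (adjusted p = 0.373). D7Ertd143e, the host of miR-292 and others, did so by -0.24 ± 0.10 (adjusted p = 0.428). F630028O10Rik, the host of the myeloid miR-223, differed by -0.11, and Mirc35hg, the host of the miR-182, miR-96 and miR-183 cluster, by -0.12, both with overlap. In the list of microRNA host genes, 9 were measured and 6 detected throughout, with a median difference of 0.10 over the 9. Its 1 called member was Mirt2, which like Mirt1 is not a microRNA host. Groups did not overlap for 4 genes of the list higher in soy and 2 lower. Mirt2 and Mir124a-1hg, the latter well above background on no array, were among the 4. Over all probes 7.75% were higher and 10.3% lower without overlap. The remaining detected members were Mir99ahg, with 0.28 at its brightest probe and 0.65 at the other (adjusted p = 0.382 and 0.087), and Carmn, the host of miR-143 and miR-145a, with -0.24 (adjusted p = 0.448). None of the 3 values was called, and the groups did not overlap at any of these probes.

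Of 17 snoRNA host genes measured, 16 were detected on all arrays, and the median difference was -0.10. By limma 0 were called and 4 had an unadjusted p under 0.05, against 0.350% and 11.47% of all probes. Snhg7 gave 14.005, 13.81 and 13.92 in control and 13.85, 14.01 and 13.77 in soy. Snhg8 (0.27), Snhg6 (0.25), Epb41l4aos (0.08), Snhg15 (0.03), 1110038B12Rik (-0.02), Snhg9 (-0.07) and Snhg20 (-0.10) likewise had overlapping groups. Groups did not overlap for 5 hosts, all lower in soy, and named here after their values were seen: Snhg5 (-0.53), Snhg1 (-0.41), Snhg4 (-0.40), Snhg12 (-0.34) and Snhg16 (-0.33), with adjusted p of 0.201 or above. Over all probes 10.3% were lower and 7.75% higher without overlap. Snhg4 was well above background on 2 control arrays and on 0 soy arrays, so its difference is a bound of at least 1.16-fold.

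Of 13 snoRNA and scaRNA probes 11 were higher in soy and 2 lower, with a median difference of 0.26. The median signals of these 13 were 7.88, 8.71 and 8.45 in control and 8.55, 8.66 and 8.97 in soy, so control 1 stood lowest. Of 16 other small structural RNA probes 13 were higher and 3 lower, with a median difference of 0.16. None was called by limma, 4 of the 13 and 2 of the 16 had an unadjusted p under 0.05, and groups did not overlap for 2 of each kind, all higher in soy. Over all probes 11.47% had such a p and 7.75% were higher without overlap. The largest differences were those of Rnu3b1, a gene of the U3 RNA that acts in ribosome assembly, and Snora34. Rnu3b1 gave 12.02, 12.38 and 12.99 in control and 13.14, 14.06 and 14.10 in soy (1.31 ± 0.32, adjusted p = 0.168). Snora34 gave 9.22, 10.81 and 10.16 in control and 10.61, 11.04 and 12.16 in soy (1.21 ± 0.48, adjusted p = 0.400), with overlap. For Snora34, control 1 lay lowest and soy 3 highest, and the size of its difference depends on these arrays. The 3 probes of U1 RNA genes, whose copies are near identical and may read each other, differed by 0.44 to 0.51 with control 1 lowest in each. Without control 1, an alternative chosen after seeing the data, the differences were 0.12 for Rnu1a1, 0.13 for Rnu1b1 and 0.17 for Rnu1b6. Rn7sk, which holds the elongation factor P-TEFb inactive, differed by 0.00, and Rmrp and Rpph1, the RNAs of RNase MRP and RNase P, by 0.06 and -0.16. Most of these RNAs carry no long poly(A) tail, and the Low Input Quick Amp labelling of the labels is known to start from such tails; its part in these values was not tested.

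Of 12 RNAs of nuclear bodies and of X inactivation, 8 were detected throughout, with a median difference of -0.12. At their brightest probes 0 were called by limma (0 at an unadjusted p under 0.05). Over all probes 0.350% were called and 11.47% had such a p. Neat1, the scaffold of paraspeckles, gave 9.47, 8.88 and 9.17 in control and 9.38, 9.40 and 9.22 in soy, a difference of 0.16 at both of its probes. Norad, which binds Pumilio proteins, gave 14.67, 14.37 and 14.47 against 14.29, 14.34 and 14.50 at its brightest probe (-0.13), while its 3 dimmer probes differed by 0.16 to 0.32, those at 0.22 and 0.32 (adjusted p = 0.506 and 0.341) without overlap, so its probes did not share a sign. Tug1 (-0.26) and Jpx (-0.26), an activator of Xist, did not overlap between groups, at adjusted p of 0.449 and 0.461, and neither did Ftx (-0.20, a bound of at least 1.06-fold), another activator of Xist that was well above background on 2 control arrays and on 0 soy arrays. These 3 of the 12 were lower, while 10.3% of all probes were lower without overlap. Firre differed by 0.14 with overlap. Among the 9 measured lincRNAs tied to p53, stress and growth, 5 were detected throughout, 0 were called by limma (1 at an unadjusted p under 0.05), and the median difference was -0.08. Lncpint, a p53 target, gave 11.19, 10.46 and 10.28 in control and 10.15, 10.27 and 9.55 in soy (-0.66 ± 0.27, adjusted p = 0.419), the only one of the 9 without overlap, and its other probe differed by -0.45. At the brighter probe control 1 lay highest and soy 3 lowest, and the size of the difference depends on these arrays. Hottip (-0.15), Pvt1 (-0.08), from the locus beside Myc, and Morrbid (0.04), which acts on myeloid cell survival, overlapped.

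Of 16 noncoding genes listed for liver and metabolism, 12 were detected throughout, and the median difference was 0.13. By limma 0 were called and 3 had an unadjusted p under 0.05, against 0.350% and 11.47% of all probes. Groups did not overlap for 2 genes higher in soy and 2 lower, against 7.75% and 10.3% of all probes. The lncRNA 1810008I18Rik gave 15.02, 15.14 and 14.15 in control and 13.39, 13.68 and 13.49 in soy (-1.25 ± 0.25, adjusted p = 0.106). All soy livers were below all control livers, and control 3 lay closest to them. Without control 3 the difference was -1.56 and was called (adjusted p = 0.022). Serpina4-ps1, a pseudogene of the serpin cluster, gave 10.81, 10.45 and 13.40 in control and 12.02, 11.93 and 11.90 in soy, so that control 3 alone lay above all soy livers. Over all arrays it differed by 0.39 ± 0.68 (adjusted p = 0.868). Without control 3 it too was called, higher in soy by 1.32 (adjusted p = 0.033). For both genes the fit without control 3 was picked after the values were seen, so these calls are no support for a difference. That fit called 203 of all 56605 probes (0.359%). Gm10319, a transcribed pseudogene, gave 14.51, 14.72 and 14.53 against 14.004, 14.37 and 13.94 (-0.48, adjusted p = 0.234). Gm4956 (0.23), Gm10768 (0.14), Cyp2d37-ps (0.03) and 0610005C13Rik (0.01) overlapped between the diets.

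**Figure D4:**
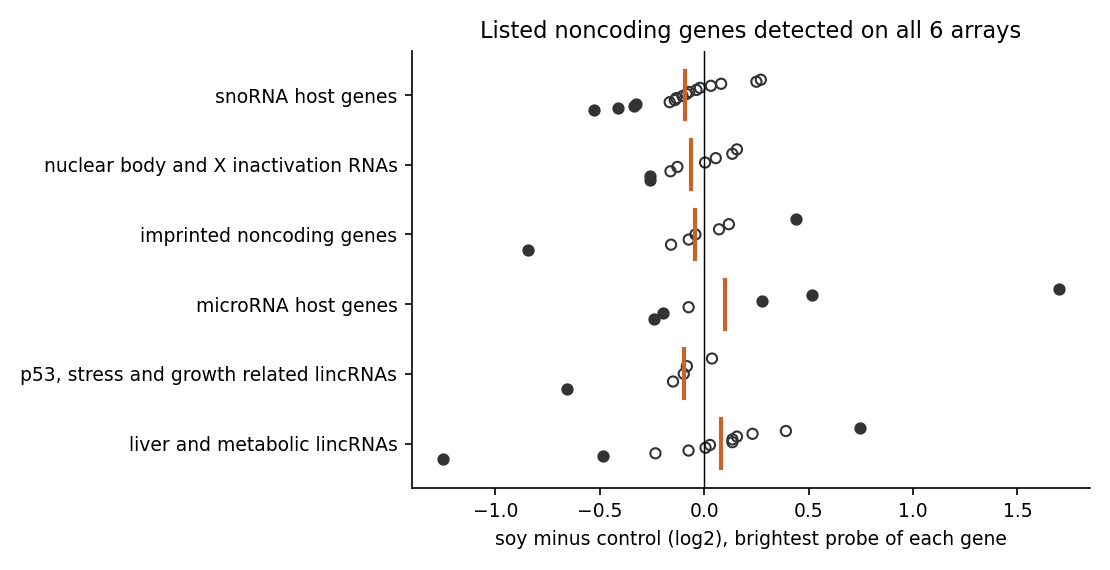
Difference between soy and control (log2, horizontal axis) of the listed noncoding genes that were well above background on all 6 arrays, 1 point per gene at its brightest probe, filled where the groups did not overlap and open where they did, with the median of each list as an orange line. Mirt2 lies farthest to the right at 1.70 and 1810008I18Rik farthest to the left at -1.25.

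The 10 noncoding genes with the brightest probes were described too, an order of probe signals and not of RNA levels. Rn4.5s, a small RNA gene, gave 17.80, 17.96 and 17.99 in control and 18.03, 17.98 and 17.96 in soy, and Rn28s1, from 28S ribosomal RNA, differed by 0.10 with overlap. The transcribed pseudogenes Gm5523, Gm6548, H2-K2, Gm12070 and Gm6607 differed by between -0.07 and 0.12, and the lncRNA Gm20751 by 0.01, all with overlap. Pseudogene probes may also read the parent gene, so these values are uncertain for the pseudogene itself. The 2 that separated the diets were AA536875, with 17.55, 17.45 and 17.22 in control and 16.84, 16.86 and 16.70 in soy (-0.61 ± 0.12, adjusted p = 0.099), and I730030J21Rik, with 17.22, 16.75 and 16.60 in control and 16.13, 15.89 and 16.09 in soy (-0.82 ± 0.17, adjusted p = 0.116).

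The array profile of I730030J21Rik recurred in other bright probes, a feature noticed after the values were seen. Of 27282 probes well above background on all arrays, 149 followed it with Pearson's r above 0.98 over the 6 arrays, and 90 of these had a mean signal above 12 (log2). The 90 held 5 noncoding probes, of Gm6994, 1700110I01Rik, A530006G24Rik, Zfp133-ps and 2310002F09Rik, and 50 NM_ probes of unlike genes such as Mtfr2, Ralgps1 and Scn8a. 1700110I01Rik gave 16.33, 15.56 and 15.39 in control and 14.80, 14.55 and 14.78 in soy, and Scn8a gave 15.48, 14.74 and 14.58 against 13.92, 13.79 and 13.92. In both, control 1 was highest and the soy livers lay below all control livers. This order follows from the choice of the probes, since I730030J21Rik has it, and so does the median difference of the 90 being below 0, at -0.88. Probe sequences are not in the files used here, so whether these probes share sequence was not tested.

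**Figure D5:**
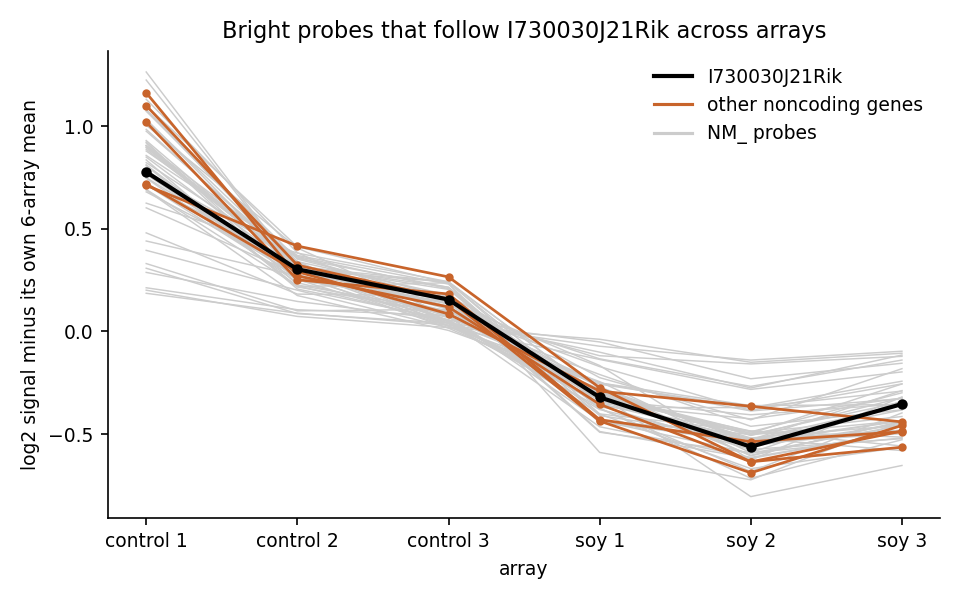
Signal of each probe minus its own mean over the 6 arrays (log2, vertical axis) on each array (horizontal axis) for I730030J21Rik (black), 5 further noncoding genes (orange) and 50 NM_ probes (grey) with a mean signal above 12 and r above 0.98 to I730030J21Rik; the lines only join the points of a probe. All of them are highest on control 1 and lower on each soy array than on each control array, as their choice by likeness to I730030J21Rik fixes.

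Where a noncoding gene was read by several probes, the probes often disagreed on small differences. In 36 genes with at least 2 probes well above background on all arrays, the differences of a gene had the same sign in 20, and they spanned 0.16 (log2) in the median gene and 0.99 in Kcnq1ot1, the widest. Among the markers of other liver cells, 1 gene was called, the B cell gene Ms4a1, higher in soy by 0.93 (adjusted p = 0.039), while the B cell gene Cd79a differed by 0.02, the T cell genes Cd3e and Cd3g by -0.11 and 0.16 and Nkg7 of cytotoxic cells by 0.06. Cd79a and Cd3g were well above background on no soy array. Summed signals of the 6 Kupffer cell markers were 23709, 37740 and 45554 in control and 32744, 39571 and 50515 in soy, with 0 called by limma and Cd5l having the brightest probe. All 6 markers of red cells and neutrophils were higher in soy, with a median difference of 0.34, and all 4 pancreas markers lower, with a median of -0.42, with 0 called by limma in either list. Of the pancreas markers only Cel was well above background on any soy array. The part of cell makeup in the 4 calls was not tested.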

How the data were processed

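Total RNA of 6 livers, 1 per mouse, was labelled with Cy3 (Low Input Quick Amp) and read on 1-colour Agilent arrays. The authors deposited Feature Extraction 11.5.1.1 output, holding, per spot, a median intensity and a median local background intensity without correction or scaling, and a table of log2 values with quantiles shared across arrays. Here the median intensities were corrected with normexp (offset 50), freed of control spots and quantile normalized. Outlier spots were dropped before averaging within a probe, a probe with 10 spots counting as well above background where a share of at least 0.5 of them was. All 56605 probes were tested with limma 3.58.1 (R 4.3.3), adjusting over all of them. Symbols came from RefSeq accessions (GRCm38.p6); the arrays were annotated on another build. Python 3.11.15, pandas 2.3.3 and matplotlib 3.10.9 made tables and plots.

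The rule named called genes, the 10 brightest, up to 10 uncalled genes per direction with the smallest p, no overlap and detection throughout a group, and detected list members (at most 8 per list), each by its brightest probe. Of these, 1 gene is not reported here. The members and lists were chosen with earlier results of these data known. Nothing says whether the mice were housed apart, so p-values measure the spread between these samples. A bound sets the bright group against the higher of the dim signal and the lowest signal well above background on each array. The fit was tested on simulated data. The alternatives were other background corrections, scalings, filters, variance settings, blocks, the deposited log2 values, and each array left out in turn.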

Additional observations from a re-analysis of the deposited data

Results flagged for a closer look

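One signal lay in data that the comparisons above do not use. Of the 70 NR_ probes without a gene symbol in the reference table, which could not be placed by the rule, 37 were well above background on all 6 arrays. None of the 70 was called by limma, against 0.350% of all probes. An unadjusted p under 0.05 was found for 10 (14.3%), against 11.47% of all probes. Their median difference, soy minus control, was 0.02 (log2).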

How the results depend on the processing

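The number of called noncoding genes was 4 under the settings used, and depended on several of them. It was 1 with a normexp offset of 16, with 77 of all probes called. That gene was 1810034E14Rik, while Mirt2, 2310040G24Rik and Kcnq1ot1 had adjusted p of 0.058, 0.090 and 0.093. The processed signal gave 840 and called 13138 of all probes. With testing limited to probes that every array of either diet detected, it was 15 of 860 probes (7 higher, 8 lower), against 497 of 32376 over all probes. The replicate block gave 2 (78 of all probes) and slide as a factor 0 (25 of all probes), the latter without use of soy 2, alone on its slide. Leaving out 1 array gave between 0 and 4, with 25 to 203 of all probes called. The count stayed within 1.5 times of 4 under the other settings, given here with the calls over all 56605 probes in brackets. There were 4 without background correction (194), 6 with a 75th percentile shift (299), 5 with cyclic loess (187) and 4 with outlier spots kept (198). Trend and robust settings gave 6 (290), the deposited log2 values 4 (196) and adjusted p alone 4 (198). The mean of a gene's probes gave 3, without Kcnq1ot1, with 146 of all 46523 means called. The labels do not say whether replicate numbers pair the mice. Deviations of same-numbered samples correlated by 0.12, -0.06 and 0.11 for replicates 1, 2 and 3. Replicates 1 shared a slide, as did replicates 3, so pairing and slide cannot be told apart there. The replicate block kept Mirt2 of the 4 and added B930025P03Rik (-1.33).

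The adjusted p of the called probes with 1 array left out lay between 0.017 and 0.121 for Mirt2, 0.049 and 0.094 for 1810034E14Rik, 0.067 and 0.129 for 2310040G24Rik and 0.083 and 0.129 for Kcnq1ot1, and their differences stayed at or above 0.72. Of 1343 values of named probes under an alternative, 0 reversed among those called or without overlap. Groups without overlap fix the direction when an array is left out, so the 0 is no measure of stability there. In all, 32 calls were lost and 37 gained, 22 of the gains with the processed signal.

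The median noncoding difference of -0.0029 moved to 0.52 with the processed signal (0.39 above the median of all probes), to 0.18 with the 75th percentile shift (0.04 above that of all probes, itself 0.13) and to -0.052 with probes detected throughout either diet, a filter that admits more probes through control than through soy. It was -0.02 over probes detected on all 6 arrays. Detection on all arrays held for 661 probes, for 1177 on at least 1 array, for 948 by the positive and significant flag and for 722 with every NR_ probe. The number of arrays, 3 per diet, limits precision, and 1183 noncoding probes were well above background on no array.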
